A study of Mus musculus with 50 samples.

Results

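Genes of the oligodendrocyte lineage were followed in RNA of sorted microglia. The genes were Mbp, Mobp, Mog, Mag, Cnp, Olig1, Olig2, Pdgfra and Cspg4, which are 9 of the 53700 genes in the count files and were taken as a list of names, with earlier results of these data known. Of the 9, 8 passed the filter on low counts and were tested, and Olig2 did not. At postnatal day 9 (P9) the libraries held RNA of the precursor genes Pdgfra, Olig1, Olig2 and Cspg4, and at P200 these genes were at or near 0. Cnp, Mbp and Mag, in contrast, were detected in all 50 mice at both ages.

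Microglia, the resident macrophages of the brain, were sorted as single viable CD45int CD11b+ cells from both hippocampi of saline-perfused male C57BL/6J mice, and their poly-A RNA was sequenced, with 1 library for every mouse. Mice of the early-life stress (ELS) groups had been raised with limited bedding and nesting material in the first postnatal week, and control (CTR) mice under standard conditions. P9-CTR (n = 12) and P9-ELS (n = 13) mice received no treatment. P200-CTR-PBS (n = 7) and P200-ELS-PBS (n = 6) mice received an injection of phosphate-buffered saline, and P200-CTR-LPS (n = 7) and P200-ELS-LPS (n = 5) mice 1 mg/kg lipopolysaccharide (LPS), a bacterial cell wall component, hours before sacrifice. Myelin was removed with Percoll from the P200 brains and not from the P9 brains, so age and this step cannot be told apart in any comparison of P200 with P9. The mice of a group came from 4 or 5 nests, read from the number in front of the point in the mouse labels.

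Oligodendrocytes form the myelin sheaths of axons. They arise from precursor cells that carry the growth factor receptor encoded by Pdgfra and the proteoglycan NG2, encoded by Cspg4, and that depend on the transcription factors Olig1 and Olig2. When precursors mature they switch on the genes of myelin proteins, first Cnp and Mbp and later Mog and Mobp. In the hippocampus most myelin forms after the first postnatal weeks, and microglia take up myelin debris and contact precursors in the developing brain. Some of the genes are not restricted to the lineage: Pdgfra is also made by perivascular fibroblasts, Cspg4 by pericytes, and the Mbp locus also gives rise to golli transcripts, which immune cells make and which counts per gene do not separate from the myelin transcripts.

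Libraries held from 5152838 to 42231258 counts. The sorted cells carried microglial RNA in every mouse: the 13 microglia markers, among them Tmem119 and Gpr34, summed to between 40242 and 92457 CPM (counts scaled to library size with the TMM method of edgeR), and each was above 0 in at least 1 mouse of every group. A total of 3 counts over a whole group, used here as the floor of detection, corresponded to 0.0106 CPM in P9-ELS and to 0.038 CPM in P200-ELS-LPS, the extremes of the 6 groups. In bulk RNA, fewer cells of a type and less RNA per cell cannot be told apart. The 3 libraries with the fewest detected genes stood apart: P9_19.2_ELS (15731 genes), P9_19.3_ELS (12482 genes) and P200_1.1_CTR_PBS (12854 genes), named as in the labels by age, number, condition and treatment. These were also among the lowest for several of the genes below, while P9_19.3_ELS was the highest for Cnp, and their values are given where they matter.

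Promoters, the stretches where transcription is controlled, are shown for 4 genes that moved in different ways with age, Mobp (higher at P200), Mag (higher at P200), Pdgfra and Olig2 (at or near 0 at P200). Each line gives the 250 bases before the first listed RefSeq start, 5′ to 3′ on the gene's strand, from the older build GRCm38.p6, at chr9:120149492-120149741 for Mobp (+), chr7:30914864-30915113 for Mag (-), chr5:75152001-75152250 for Pdgfra (+) and chr16:91225300-91225549 for Olig2 (+). Capitals mark the letters ACAAAG or, for the other strand, CTTTGT, a core recognized by SOX transcription factors such as Sox10, a regulator of myelin genes.
Mobp: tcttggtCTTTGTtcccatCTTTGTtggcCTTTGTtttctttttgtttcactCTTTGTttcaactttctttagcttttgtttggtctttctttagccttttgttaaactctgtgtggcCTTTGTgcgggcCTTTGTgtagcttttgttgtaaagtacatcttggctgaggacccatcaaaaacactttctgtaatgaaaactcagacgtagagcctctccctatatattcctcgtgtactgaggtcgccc
Mag: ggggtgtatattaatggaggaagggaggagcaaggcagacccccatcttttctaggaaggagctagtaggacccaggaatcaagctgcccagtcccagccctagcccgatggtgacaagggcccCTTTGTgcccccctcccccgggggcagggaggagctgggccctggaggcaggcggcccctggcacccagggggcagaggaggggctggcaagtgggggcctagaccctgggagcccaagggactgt
Pdgfra: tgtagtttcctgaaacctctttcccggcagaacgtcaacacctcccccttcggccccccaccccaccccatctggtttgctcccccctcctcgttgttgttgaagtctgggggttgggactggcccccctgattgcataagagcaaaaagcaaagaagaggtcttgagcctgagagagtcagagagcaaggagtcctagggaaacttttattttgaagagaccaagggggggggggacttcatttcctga
Olig2: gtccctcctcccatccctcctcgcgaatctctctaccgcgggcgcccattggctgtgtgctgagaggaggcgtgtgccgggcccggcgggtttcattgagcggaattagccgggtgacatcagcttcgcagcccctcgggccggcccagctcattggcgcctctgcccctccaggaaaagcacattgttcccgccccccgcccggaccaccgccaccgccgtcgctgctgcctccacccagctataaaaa
The Mobp window held 6 matches, the Mag window 1 and those of Pdgfra and Olig2 0. Among 27025 promoters of the same length 16.5% held at least 1 match, and no promoter other than that of Mobp held as many as 6. Of the remaining genes with a window in the table, Cnp had 1 match, and Mog and Cspg4 had 0. The windows also differed in CpG pairs: Olig2 had 22, Cnp 13 and Cspg4 12, against 4 in Pdgfra and in Mobp, 3 in Mag, 2 in Mog and a median of 6 over all promoters. A match is a description of these letters and not a site of binding.

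The genes lie on 7 chromosomes (GRCm39, GENCODE): Mobp at chr9:119973770-120011273, Mog at chr17:37321521-37334350, Mag at chr7:30598464-30614474, Cnp at chr11:100465730-100482936, Olig1 at chr16:91066660-91068821, Olig2 beside it at chr16:91019435-91025567, Pdgfra at chr5:75311994-75358876, Cspg4 at chr9:56772317-56807187 and Mbp on chromosome 18.

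Per kilobase of exon, the order of the levels differed between the ages. At P9 the median over 25 mice was 27.8 CPM per kb for Cnp, 2.17 for Mag, 1.61 for Mbp, 1.28 for Olig1, 0.545 for Mog, 0.305 for Pdgfra, 0.0123 for Cspg4, 0.0111 for Olig2 and 0 for Mobp. Cnp was above Mag in 25 of 25 mice and Pdgfra above Cspg4 in 23, while Mbp was above Olig1 in 14 and Cspg4 above Olig2 in 9, so these last neighbours did not differ beyond their spread. The order depends on the length used, that of all annotated exons merged, 9745 bases for Mbp and 4960 for Mag. Without division by length, Mbp had the higher median of the 2 at P9, 15.3 against 11 CPM in P9-CTR and 15.7 against 10.6 CPM in P9-ELS. At P200 the median was 23.5 CPM per kb for Cnp, 6.04 for Mag, 1.81 for Mbp, 0.0646 for Mog, 0.0322 for Mobp and 0 for each of Olig1, Olig2, Pdgfra and Cspg4. The order of Cnp over Mag, Mag over Mbp and Mbp over Mog held in 25 of 25 adult mice, and Mog was above Mobp in 14 of 25. Cnp exceeded between 90.8% and 93.2% of the tested genes per kb in the 6 groups.

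**Figure D1:**
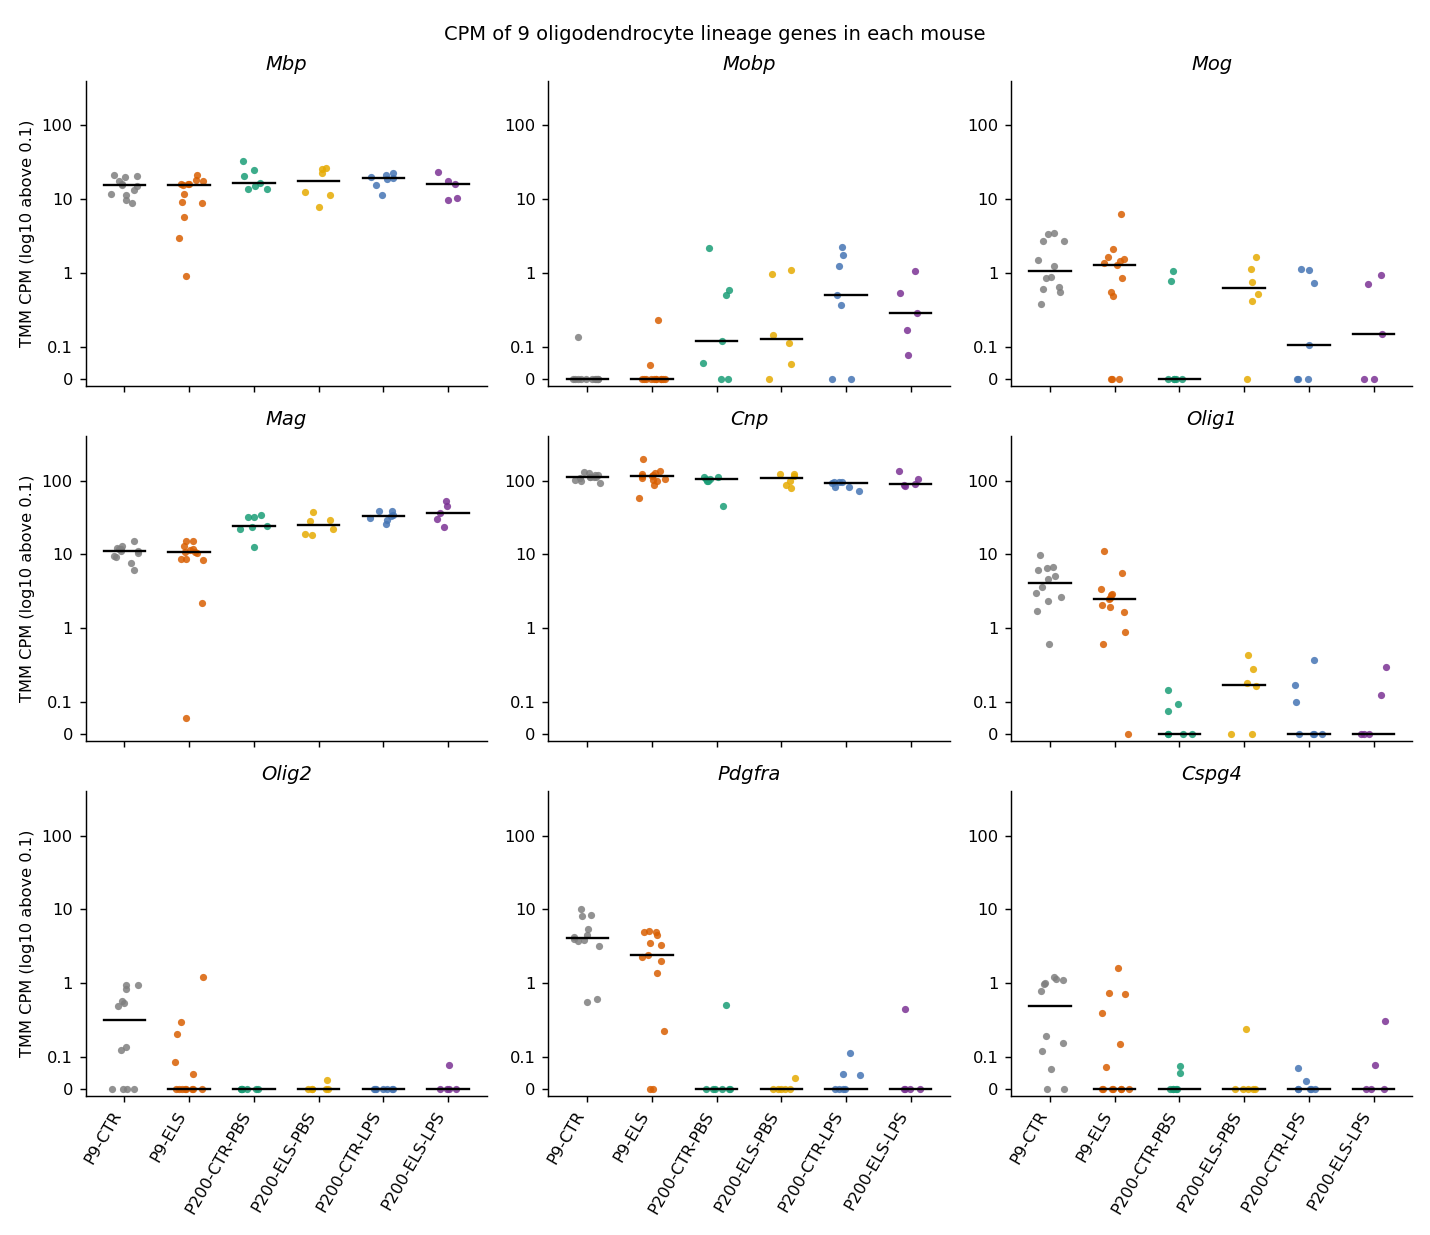
TMM-normalized CPM of each gene (y axis, log10 above 0.1 and linear below) in each of the 50 mice by group (x axis); 1 point is 1 mouse and the line is the group median. Cnp, Mbp and Mag are above 0 in every mouse, Mobp is at 0 in 22 of 25 P9 mice, and Olig2, Pdgfra and Cspg4 have a median of 0 in all 4 P200 groups.

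The first comparison asked how the genes differed between P9 and PBS-injected adult mice, once in CTR and once in ELS mice. Among all tested genes 26.4% were called in the CTR comparison (P200-CTR-PBS minus P9-CTR) and 26.2% in the ELS comparison (P200-ELS-PBS minus P9-ELS), with an adjusted p under 0.05 in edgeR's quasi-likelihood test and an absolute log2 fold change above 1. Of the 8 tested genes 6 were called in CTR, 2 higher and 4 lower, and 4 in ELS, 2 higher and 2 lower. Of all tested genes, 7.98% were called higher and 18.5% lower in CTR, and 8.68% and 17.5% in ELS. These counts are not read against the background, because Olig1, Pdgfra and Cspg4 passed the filter on low counts only through P9 mice and Mobp only through P200 mice. The 2 comparisons use separate mice.

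Pdgfra and Olig1 were lower at P200 in both conditions, and Cspg4 in CTR. Pdgfra, the receptor through which precursors receive their main mitogen, was between 0.544 and 10.2 CPM (median 4.06) in the 12 P9-CTR mice and at 0 in 6 of 7 P200-CTR-PBS mice, with 0.499 CPM (7 counts) in P200_15.1_CTR_PBS. The groups did not overlap. The log2 fold change was -6.25 ± 1.04 (SE; edgeR adjusted p = 2.48e-06), and -9.67 without P200_15.1_CTR_PBS. In P9-ELS mice Pdgfra was between 0 and 5.05 CPM (median 2.42), with 2 mice at 0, 1 of them P9_19.3_ELS, and in P200-ELS-PBS mice a single count was found in 6 mice, against 836 in P9-ELS. The ratio of P9-ELS to P200-ELS-PBS was 434 (95% counting interval 77.6 to 17149), and the fitted log2 fold change was -7.74 ± 1.28 (edgeR adjusted p = 2.17e-06), or -8.83 without P200_4.1_ELS_PBS, which held that count. Here and below, such ratios are of summed counts scaled to the summed library sizes of the groups, and counting intervals cover counting error only.

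Olig1, a transcription factor of the whole lineage, was between 0.609 and 9.79 CPM (median 4.1) in P9-CTR and between 0 and 0.142 CPM in P200-CTR-PBS, with 4 of 7 mice at 0. These groups did not overlap either, and Olig1 fell by 6.69 ± 0.98 on the log2 scale (edgeR adjusted p = 1.72e-07). Olig1 in the ELS mice was between 0 and 11 CPM (median 2.44) at P9 and between 0 and 0.423 CPM (median 0.17) at P200, and fell by 3.97 ± 0.85 (edgeR adjusted p = 0.000162). The groups without overlap, Pdgfra and Olig1 in CTR and Mag in ELS, are set beside 2854 of the 16696 tested genes without overlap in CTR and 1941 in ELS. No gene of the 8 was called for a difference between the age changes of CTR and ELS mice, against 0.0299% of all tested genes. The age change of Olig1 was smaller in ELS than in CTR by 2.72 ± 1.12 on the log2 scale, which did not pass adjustment over all genes (edgeR p = 0.0186 unadjusted and 0.392 adjusted).

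Olig2, which specifies the lineage and was too low to be tested, had 111 counts over the P9-CTR mice, 8 of which were above 0 with a highest value of 0.933 CPM. It had no count in the 7 P200-CTR-PBS mice. Set against the floor of 3 counts over the group, its level in P9-CTR was at least 20.4-fold higher. In ELS mice it had 38 counts at P9, in 5 of 13 mice, and 1 count at P200, a scaled ratio of 19.7 (95% counting interval 3.33 to 799). Over both ages and treatments Olig2 was above 0 in 13 of 25 P9 mice and in 2 of 25 P200 mice.

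Cspg4, the gene of NG2, was between 0 and 1.22 CPM (median 0.484) in P9-CTR, with 10 of 12 mice above 0. In P200-CTR-PBS it had 1 count in each of P200_1.1_CTR_PBS and P200_8.1_CTR_PBS and none in the other 5. It fell by 4.78 ± 1.37 on the log2 scale (edgeR adjusted p = 0.00386), and the scaled ratio of P9-CTR to P200-CTR-PBS was 47 (95% counting interval 12.8 to 392). Without P200_8.1_CTR_PBS the log2 fold change was -5.39. In ELS mice it was above 0 in 6 of 13 mice at P9 (highest 1.61 CPM) and in 1 of 6 mice at P200, P200_17.1_ELS_PBS with 0.241 CPM. The log2 fold change of -2.65 ± 1.26 did not pass the test (edgeR adjusted p = 0.0847), and without P200_17.1_ELS_PBS it was -5.65 (edgeR adjusted p = 0.00575).

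The genes of myelin proteins did not share 1 pattern with age. Mobp, a protein of compact myelin, was higher at P200. It was at 0 in 11 of 12 P9-CTR mice, with 0.136 CPM in P9_17.1_CTR, and in P200-CTR-PBS the 7 mice had 0, 0, 0.0509, 0.119, 0.496, 0.584 and 2.15 CPM. The log2 fold change was 4.69 ± 1.07 (edgeR adjusted p = 0.000342). It was 3.48 without P200_18.2_CTR_PBS, the highest adult, and 6.41 without P9_17.1_CTR. In ELS mice Mobp was at 0 in 11 of 13 mice at P9, and the 6 adults had 0, 0.0479, 0.113, 0.142, 0.978 and 1.09 CPM, a log2 fold change of 3.65 ± 1.03 (edgeR adjusted p = 0.00333). The ELS call was lost when counts were summed per nest (3.68, edgeR adjusted p = 0.0522), and without P9_9.2_ELS, which held 8 of the 9 counts of its group, the change was 5.33. It was 3.03 without P200_11.1_ELS_PBS.

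Mag, an adhesion molecule of the innermost myelin layer and a sialic acid binding lectin, was the abundant gene among those that rose. It was between 6.08 and 14.9 CPM (median 11) in P9-CTR and between 12.6 and 33.6 CPM (median 24.3) in P200-CTR-PBS. Only the lowest adult, P200_1.1_CTR_PBS with few detected genes, lay within the P9 range, and the other 6 were at 22.2 CPM or more. Mag rose by 1.27 ± 0.31 on the log2 scale in CTR (edgeR adjusted p = 0.000686). In ELS mice it was between 0.0507 and 15 CPM (median 10.6) at P9 and between 18.5 and 37.3 CPM (median 24.9) at P200, without overlap, and rose by 1.40 ± 0.31 (edgeR adjusted p = 0.00027). The 2 P9-ELS mice with few detected genes, P9_19.2_ELS with 0.0507 CPM and P9_19.3_ELS with 2.15 CPM, were the lowest of the 50, and without these 2 mice and P200_1.1_CTR_PBS the medians were 10.8 CPM in P9-ELS and 28 CPM in P200-CTR-PBS. Cd22, a related lectin gene and a protein-coding neighbour of Mag, differed by 0.77 in CTR and by 0.16 in ELS on the log2 scale (edgeR adjusted p = 0.0282 and 0.715) and was not called in either.

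Mog, a protein of the outer myelin surface, was between 0.372 and 3.52 CPM (median 1.05) in P9-CTR. In P200-CTR-PBS it was at 0 in 5 of 7 mice and at 0.779 and 1.06 CPM in P200_5.2_CTR_PBS and P200_8.1_CTR_PBS. The log2 fold change was -2.59 ± 1.07 (edgeR adjusted p = 0.0444), and the groups overlapped. The call was lost in 10 of the 19 fits that left out 1 of these mice, with log2 fold changes between -2.58 and -2.36. The change was -3.24 without P200_5.2_CTR_PBS and -3.49 without P200_8.1_CTR_PBS. The mice whose removal ended the call were P9_15.2_CTR, P9_17.2_CTR, P9_52.1_CTR, P9_52.2_CTR, P9_58.2_CTR, P200_1.1_CTR_PBS, P200_5.1_CTR_PBS, P200_15.1_CTR_PBS, P200_18.1_CTR_PBS and P200_18.2_CTR_PBS. In ELS mice Mog was between 0 and 6.26 CPM (median 1.27) at P9 and between 0 and 1.63 CPM (median 0.627) at P200, with a log2 fold change of -0.88 ± 1.01 (edgeR adjusted p = 0.517). Of the 2283 bases of Mog exons, 1474 are shared with Zfp57 on the other strand, and Zfp57 itself was lower at P200 in CTR (log2 fold change -1.85, edgeR adjusted p = 0.0402). The strand setting of the counting is not given in the sources used here, and the part of Zfp57 in the Mog counts was not tested.

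Mbp and Cnp were not called. Mbp, a major protein of compact myelin, was between 8.83 and 21.1 CPM (median 15.3) in P9-CTR and between 13.7 and 33.1 CPM (median 16.7) in P200-CTR-PBS, with a log2 fold change of 0.38 ± 0.30 (edgeR adjusted p = 0.316). Mbp in the ELS mice was between 0.896 and 21.1 CPM (median 15.7) at P9 and between 7.82 and 26.3 CPM (median 17.6) at P200, with a log2 fold change of 0.53 ± 0.31 (edgeR adjusted p = 0.173). The lowest of the 50 mice were again P9_19.3_ELS (0.896 CPM) and P9_19.2_ELS (2.99 CPM). Cnp, an enzyme of non-compact myelin, was between 92.8 and 129 CPM (median 112) in P9-CTR and between 97.7 and 112 CPM in 6 of 7 P200-CTR-PBS mice, with 44.8 CPM in P200_1.1_CTR_PBS, a log2 fold change of -0.22 ± 0.14 (edgeR adjusted p = 0.229). Cnp in the ELS mice was between 57.2 and 196 CPM (median 114) at P9 and between 79.8 and 123 CPM (median 107) at P200, a log2 fold change of -0.12 ± 0.15 (edgeR adjusted p = 0.545). Both P9-ELS extremes were libraries with few detected genes, P9_19.2_ELS (57.2 CPM) and P9_19.3_ELS (196 CPM). Cnp shares 670 of its 4049 exon bases with Dnajc7 on the other strand, a chaperone gene with medians between 112 and 131 CPM in the 6 groups, and the part of Dnajc7 in the Cnp counts was not tested.

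**Figure D2:**
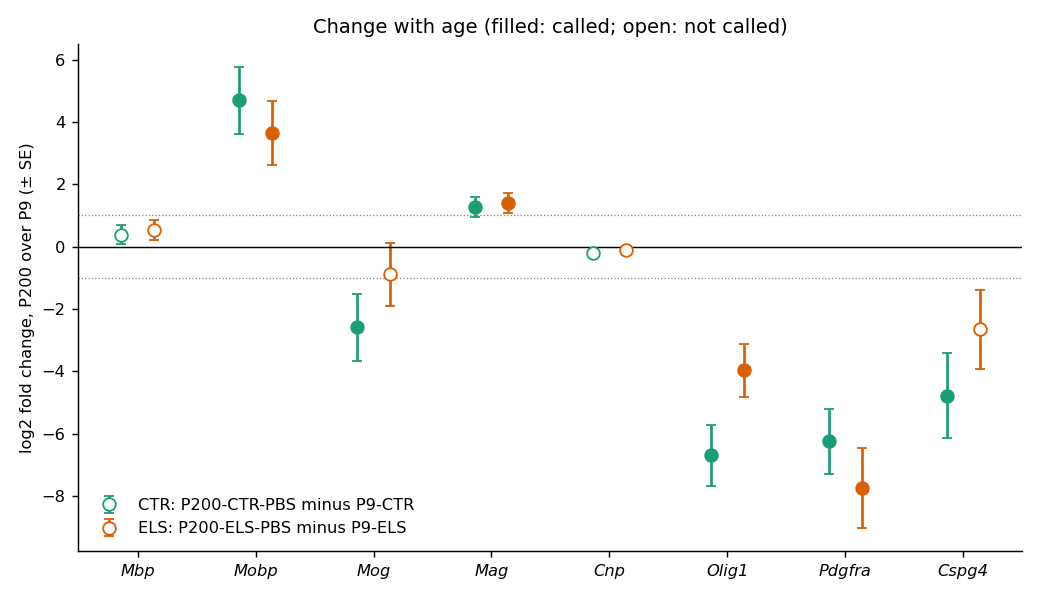
Log2 fold change of P200 (PBS) over P9 (y axis, bars are SE) for the 8 tested genes (x axis), in CTR and in ELS mice; filled points were called, open points were not, and dotted lines mark a log2 fold change of 1 and -1. Mobp and Mag lie above 1 in both conditions, Olig1 and Pdgfra lie below -1 in both and were called in both, and Mbp and Cnp lie within 1 of 0.

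Other genes of the lineage were taken from 4 lists. Of the other precursor genes, 9 of 12 were tested and each of the 9 was lower at P200 in CTR and in ELS, with a median log2 fold change of -5.56 in CTR and -5.11 in ELS (over all tested genes it was -0.09 and -0.01). Of these 9, 7 passed the filter on low counts only through P9 mice and 2 also through P200 mice, so this count and median are not read against the background. The same holds for 4 of 12 tested genes of the myelin list, 3 of 6 of the newly formed oligodendrocyte list and 3 of 3 lineage transcription factors, and for 6 of 11 neuron, 3 of 11 astrocyte, 4 of 7 endothelial, 3 of 5 pericyte and smooth muscle, 4 of 4 fibroblast and 4 of 6 border-associated macrophage markers. The medians of the precursor list were the same with the genes that had no count in a whole group set to the bound that the floor gives. Ptprz1, a receptor phosphatase of precursors and astrocytes, was between 21 and 51.9 CPM in P9-CTR and at 0 in 5 of 7 P200-CTR-PBS mice (log2 fold change -6.38 ± 0.79, edgeR adjusted p = 3.19e-09). Bcan, a proteoglycan of the extracellular matrix, was between 2.01 and 19 CPM in P9-CTR and at most 0.687 CPM in P200-CTR-PBS (-6.30 ± 0.93, edgeR adjusted p = 2.38e-07). Together the 12 genes summed to between 20.4 and 81.9 CPM in P9 mice and to between 0 and 3.35 CPM in P200 mice.

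Of the list of newly formed oligodendrocytes, 6 of 7 genes were tested, 2 were higher and 3 lower at P200 in each condition. The 2 higher genes were Itpr2, a calcium channel of the endoplasmic reticulum, and Tcf7l2, a transcription factor of Wnt signalling, at a median of 154 and 208 CPM in P200-CTR-PBS against 70.1 and 89 CPM in P9-CTR. These 2 genes made up most of the sum of the list, a median of 367 CPM in P200-CTR-PBS and 172 CPM in P9-CTR. The lower genes in CTR were Fyn, Gpr17 and Bcas1, of which Gpr17, a receptor of committed precursors, was above 0 in 10 of 12 P9-CTR mice and in 0 of 7 P200-CTR-PBS mice. In ELS the lower genes were Fyn, Bcas1 and Enpp6. Gpr17, Bcas1 and Enpp6 passed the filter on low counts only through P9 mice, and Fyn, Itpr2 and Tcf7l2 also through P200 mice. Of the lineage transcription factors 3 of 8 were tested, and St18 and Sox8 were lower at P200 in CTR (edgeR adjusted p = 0.00135 and 0.0216) and none in ELS. Sox10, which acts with Olig2 in the lineage, reached at most 1.85 CPM in any P9 mouse and 0.581 CPM in any P200 mouse.

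Of the other myelin and mature oligodendrocyte genes, 12 of 25 were tested. In CTR 1 was higher and 5 lower at P200, in ELS 1 was higher and 4 lower, and the median of the 12 log2 fold changes was -1.89 and -1.14. The higher gene was Ermn, which encodes a cytoskeletal protein of mature oligodendrocytes, at 0 in 12 of 12 P9-CTR and 12 of 13 P9-ELS mice, and above 0 in 3 of 7 P200-CTR-PBS and 6 of 6 P200-ELS-PBS mice. The edgeR adjusted p of Ermn was 0.000114 in CTR and 6.62e-06 in ELS, and its highest value was 2.69 CPM in P200-ELS-PBS. Ermn was the 1 gene of this list that passed the filter on low counts only through P200 mice, so its call is not read against the background. Among the lower genes, Anln, a cytokinesis protein also used by dividing cells, went from a median of 70.5 to 0.428 CPM in CTR, and Car2, a carbonic anhydrase, from 6.89 to 0.733 CPM. The sum of the list, a median of 2121 CPM in P9-CTR and 2266 CPM in P200-CTR-PBS, was mostly Trf, the gene of transferrin, at a median of 1885 and 2174 CPM. Opalin, a marker of mature oligodendrocytes, was at 0 in all 25 P9 mice.

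Markers of other cell types moved with age in the same samples, and their part in the change of the lineage genes was not tested. In CTR all 11 tested neuron markers were lower at P200 and in ELS 9 of 11. The sum of the neuron list was between 44.6 and 228 CPM in P9 mice and between 2.54 and 17.6 CPM in P200 mice. Of 11 astrocyte markers 10 were lower and 1 higher in CTR, and 9 lower and 1 higher in ELS. The higher one was Slc1a3, a glutamate transporter, and the sum of the list, which it leads at P200, was between 130 and 462 CPM at P9 and between 303 and 619 CPM at P200. All 6 markers of border-associated macrophages were lower in CTR and 4 of 6 in ELS, with Mrc1 at a mean of 711 CPM in P9-CTR and 5.76 CPM in P200-CTR-PBS.

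Of the cell types that share Pdgfra and Cspg4 with precursors, 4 of 4 tested fibroblast markers were lower in CTR and 3 of 4 in ELS, with list sums of at most 8.85 CPM at P9 and 0.57 CPM at P200. The pericyte and smooth muscle list had 3 of 5 tested genes lower in each condition, with sums of at most 25.8 CPM at P9 and 9.9 CPM at P200. Of 7 tested endothelial markers 4 were lower in CTR, and in ELS 4 were lower and 1 higher, with list sums between 1.77 and 57.4 CPM at P9 and between 30.4 and 99.9 CPM at P200. Monocyte and neutrophil markers stayed at 11 CPM or less in sum in every mouse, with 1 of 2 tested genes higher and 1 lower in each condition, and Ly6g at 0 in all 50 mice. Of 13 microglia markers 2 were higher at P200 in CTR and 1 in ELS, and none was lower.

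**Figure D3:**
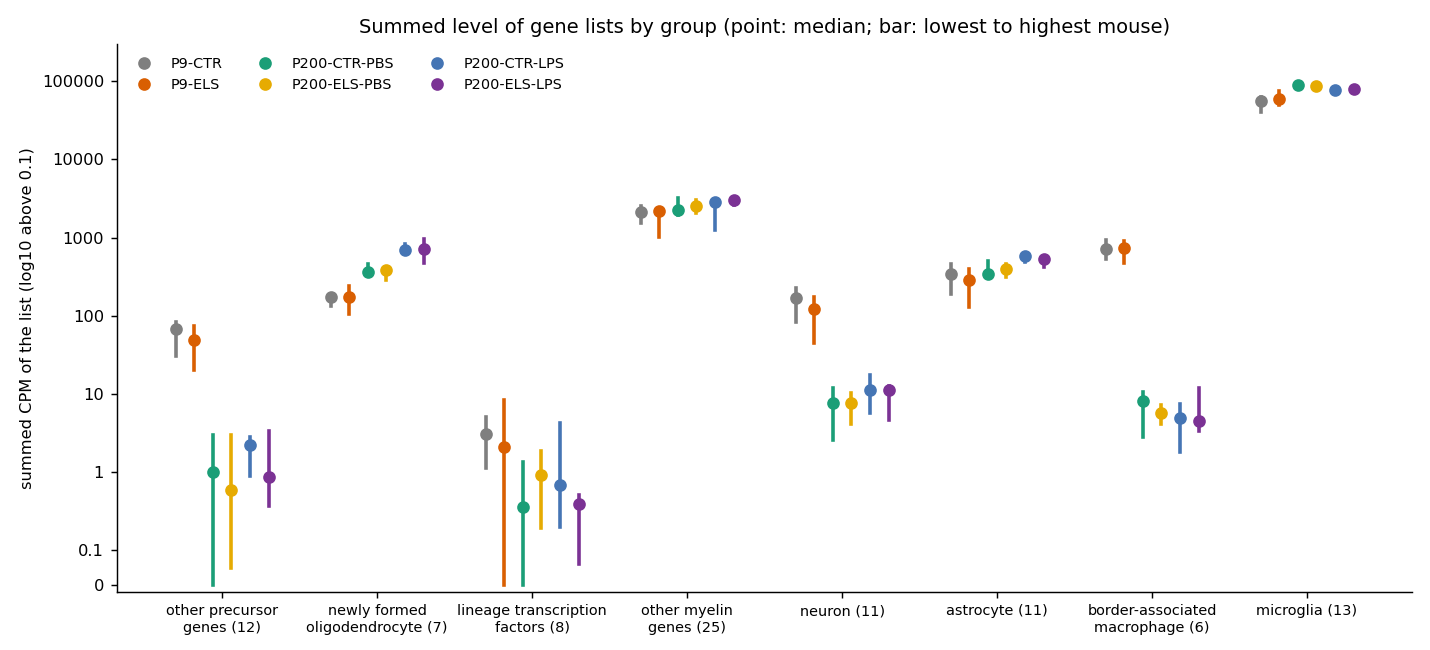
Summed CPM of 8 gene lists (x axis, number of genes in parentheses) by group (y axis, log10 above 0.1 and linear below); the point is the median mouse and the bar runs from the lowest to the highest mouse. The sums of the other precursor genes, the neuron markers and the border-associated macrophage markers are lower in the 4 P200 groups than in the P9 groups. The sums of the other myelin genes and of newly formed oligodendrocytes are not, but they are mostly Trf, and Itpr2 with Tcf7l2. Gene by gene, more of both lists were called lower than higher with age. Of the tested genes, 4 of 12 myelin and 3 of 6 newly formed oligodendrocyte genes passed the filter on low counts only through P9 mice. These counts of calls are therefore not read against the background.

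The second comparison asked whether ELS changed the genes at P9. None of the 8 was called and none had an unadjusted p under 0.05 in edgeR's quasi-likelihood test, and over all tested genes 0% were called, while 914 had an unadjusted p under 0.05 and DESeq2 called 0. The precursor genes had the lower medians in P9-ELS, with wide overlap: Pdgfra 2.42 against 4.06 CPM (log2 fold change -0.82 ± 0.59), Olig1 2.44 against 4.1 CPM (-0.58 ± 0.54), and Cspg4 0 against 0.484 CPM (-0.95 ± 0.85). The edgeR adjusted p was between 0.97 and 1 for all 8. Olig2 was above 0 in 5 of 13 P9-ELS mice and in 8 of 12 P9-CTR mice. Among the myelin protein genes the log2 fold change was -0.29 ± 0.26 for Mbp, -0.13 ± 0.27 for Mag, -0.22 ± 0.78 for Mog, 0.72 ± 0.95 for Mobp and 0.02 ± 0.12 for Cnp. Without the 3 libraries with few detected genes, 2 of which are P9-ELS mice, the log2 fold changes were 0.07 for Mag, 0.01 for Mog, -0.69 for Pdgfra, -0.37 for Olig1 and -0.74 for Cspg4, and the P9-ELS median of Pdgfra was 3.28 CPM. None of the markers of other cell types was called, and their lists did not all move in the same direction. The neuron list had a median log2 fold change of -0.50 (median sum 123 CPM in P9-ELS, or 125 CPM without those libraries, against 170 CPM in P9-CTR). The astrocyte list had -0.37 (sum 288 against 343 CPM), and the endothelial list -0.61, although its median sum was 39.6 against 37.3 CPM. The median was -0.63 for the pericyte and smooth muscle list and -0.08 for border-associated macrophages. It was 0.09 for the fibroblast list and 0.48 for the 2 tested monocyte and neutrophil markers. The part of other cell types in the values of the precursor genes was not tested.

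ELS was compared with CTR again in adult mice after PBS and after LPS. None of the 8 genes was called in either, against 0.156% of all tested genes after PBS and 0% after LPS. After PBS these were 26 genes, while DESeq2 called 155 and edgeR's likelihood-ratio test 191. With 1 library left out the number was between 1 and 75, the highest without P200_15.1_CTR_PBS. Litters and not single mice were assigned to ELS or CTR. With counts summed per nest 7 genes were called, and with limma's voom and nest as random effect 0. After LPS, 798 tested genes had an unadjusted p under 0.05, DESeq2 called 2 and the likelihood-ratio test 10. None of the 8 genes was called by these tests. After PBS the smallest p was that of Olig1, which was at 0, 0, 0, 0, 0.0713, 0.0916 and 0.142 CPM in CTR and at 0, 0, 0.163, 0.178, 0.281 and 0.423 CPM in ELS mice. The log2 fold change of Olig1 was 2.14 ± 0.98, edgeR p = 0.0341 unadjusted and 0.441 adjusted, and rested on 5 counts in CTR and 30 in ELS. Mog was above 0 in 2 of 7 CTR and 5 of 6 ELS mice (log2 fold change 1.50 ± 1.13, edgeR adjusted p = 0.76). Mbp, Mag and Cnp differed by -0.15 ± 0.36, -0.00 ± 0.37 and 0.12 ± 0.17 on the log2 scale. Of 59 tested markers of other cell types and microglia, 1 was called after PBS and 0 after LPS. It was the astrocyte marker Gfap, at a mean of 0.108 CPM in ELS and 1.28 CPM in CTR mice (log2 fold change -3.58 ± 0.82, edgeR adjusted p = 0.0466).

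After LPS, Mbp was at 9.6, 10.3, 16, 17.6 and 23.3 CPM in the 5 ELS mice and between 11.5 and 22.9 CPM (median 19.6) in CTR mice (log2 fold change -0.26 ± 0.38). Mag was at 23.6, 30, 36, 44.5 and 52 CPM in ELS mice and between 26 and 39 CPM (median 32.8) in CTR mice (0.18 ± 0.38). Cnp was at 83.5, 86.1, 90.7, 106 and 133 CPM in ELS mice and between 71.5 and 95.1 CPM (median 92.8) in CTR mice (0.19 ± 0.18). The groups overlapped for each of these 3 genes and the edgeR adjusted p was 1. Mobp was above 0 in 5 of 5 ELS mice, at 0.0738, 0.165, 0.289, 0.527 and 1.05 CPM, and in 5 of 7 CTR mice, the highest at 2.26 CPM. Olig1, Olig2, Pdgfra, Cspg4 and Mog had at most 1.12 CPM in any LPS-treated mouse.

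The last comparison was that of LPS with PBS, which called 9.62% of all tested genes in CTR mice and 7.86% in ELS mice. The PBS mice are those of the comparisons above. None of the 8 genes was called and none had an unadjusted p under 0.05 in edgeR's quasi-likelihood test. Mag had the higher median after LPS in both conditions, 32.8 against 24.3 CPM in CTR (log2 fold change 0.36 ± 0.35, edgeR adjusted p = 0.586) and 36 against 24.9 CPM in ELS (0.54 ± 0.40, edgeR adjusted p = 0.436), with overlapping groups. Cnp had the lower median, 92.8 against 104 CPM in CTR (-0.13 ± 0.16) and 90.7 against 107 CPM in ELS (-0.06 ± 0.18). Mbp had log2 fold changes of -0.09 ± 0.34 (CTR) and -0.21 ± 0.39 (ELS). The log2 fold changes of the 5 genes with few counts were between -1.13 (Olig1 in ELS) and 2.80 (Pdgfra in ELS) and had standard errors between 0.99 and 2.02. That of Pdgfra rested on 6 counts in 1 LPS mouse and 1 count in 1 PBS mouse, a scaled ratio of 11 (95% counting interval 1.36 to 515). The difference between the LPS changes of ELS and CTR mice was not called for any of the 8 (edgeR adjusted p between 0.878 and 1), and 0% of all tested genes were called there, with 980 at an unadjusted p under 0.05 and 15 called by DESeq2, none of them among the 8.

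Of the 30 tested genes of the 4 lineage lists, 5 were called after LPS in CTR (16.7%, against 9.62% of all tested genes) and 3 in ELS (10%, against 7.86%). Many of the tested genes passed the filter on low counts only through P9 mice, so these shares are not read against the background. This was the case for 4 of 12 myelin, 3 of 6 newly formed oligodendrocyte, 3 of 3 transcription factor and 7 of 9 precursor genes, with Gpr37, St18 and Cacng4 among them. Tcf7l2 rose from a median of 208 to 510 CPM in CTR (log2 fold change 1.34 ± 0.16, edgeR adjusted p = 5.01e-09) and from 212 to 522 CPM in ELS (1.31 ± 0.18, edgeR adjusted p = 1.71e-07). Adamts4, a protease of matrix proteoglycans, had no count in the 7 P200-CTR-PBS mice and was between 0.09 and 47.5 CPM (median 4.29) in all 7 P200-CTR-LPS mice. In ELS mice it was above 0 in 1 of 6 mice after PBS (0.827 CPM) and between 1.46 and 47.7 CPM in 5 of 5 after LPS (edgeR adjusted p = 0.000427). The remaining calls were Gpr37 (lower), St18 and Cacng4 (higher) in CTR and Vcan (higher) in ELS, all at 2.57 CPM or less in every mouse of the groups compared. In CTR the mean of Gpr37 was 0.367 CPM after PBS and 0.00696 CPM after LPS, and that of St18 was 0 and 0.362 CPM. Markers of other cell types were called in the same comparisons, and their part in these values was not tested. Anpep, from the pericyte and smooth muscle list, was higher after LPS in both conditions (log2 fold change 6.25 ± 1.04 in CTR and 4.66 ± 1.01 in ELS). The endothelial markers Kdr (2.28 ± 0.67) and Cdh5 (2.06 ± 0.73) were higher in CTR. In ELS the astrocyte markers Gfap and Gja1, the neuron marker Dlg2 and the fibroblast marker Dcn were higher, all at 4.06 CPM or less in every mouse of the groups compared. The mean of Gfap was 0.108 CPM in P200-ELS-PBS and 1.66 CPM in P200-ELS-LPS, beside 1.28 CPM in P200-CTR-PBS.

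Within groups the genes did not rise and fall as 1 set from mouse to mouse. Over the 28 pairs of tested genes, the median Pearson r of log2 CPM centred on the group means was 0.18 over 50 libraries (the genes of a library share its depth, nest and sort) and 0.10 without the 3 libraries with few detected genes. The pair with the highest r over the 50 libraries was Mbp and Olig1, with 0.64 (0.32 without the 3 libraries). Mbp and Mag had an r of 0.53, which was 0.01 without the 3 libraries, and Mbp and Cnp went from 0.14 to 0.62. At P9, over the 23 libraries left when P9_19.2_ELS and P9_19.3_ELS were set aside, Mbp had an r of 0.56 with Pdgfra, 0.44 with Olig1 and 0.49 with Cnp. At P200, where most of the precursor genes were at 0, the highest r was that of Mobp and Mog, 0.59 over 25 libraries, and that of Mbp and Cnp was 0.51.

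**Figure D4:**
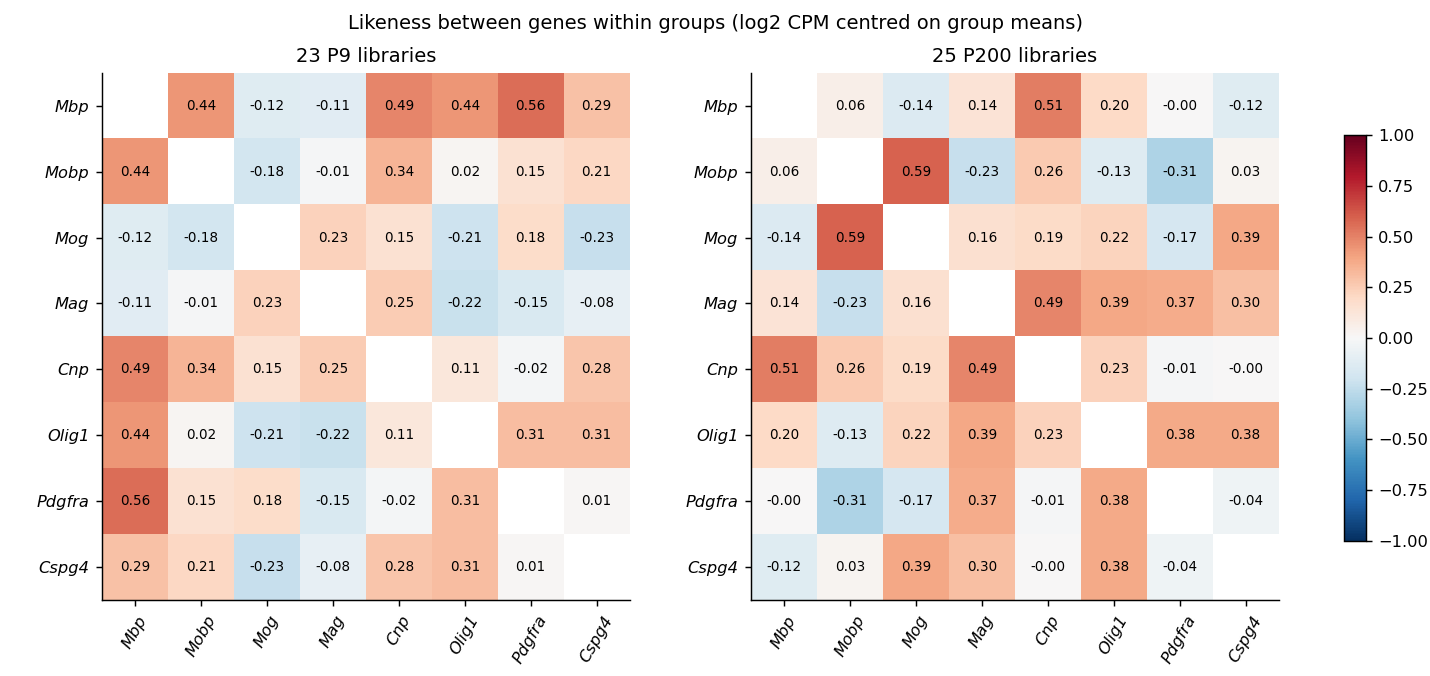
Pearson r between each pair of tested genes (rows and columns), from log2 CPM centred on the group means, in 23 P9 libraries (left, without the 2 with few detected genes) and 25 P200 libraries (right). Mbp with Pdgfra is the highest pair at P9 (0.56) and Mobp with Mog the highest at P200 (0.59).

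The genes whose pattern within groups was most like that of Mbp over the 50 libraries were Cdh23 (Pearson r = 0.84), Cyb5d1 (0.81), Mlph (0.81), Hrh2 (0.81) and Socs3 (0.80). These values rested in part on the 3 libraries with few detected genes. Without them the r with Mbp was 0.55 for Cdh23, 0.46 for Cyb5d1, 0.40 for Mlph, 0.38 for Hrh2 and 0.47 for Socs3, and none of these was among the 5 highest, which were Reep2 (0.67), Olfml2b (0.65), Plxdc2 (0.65), Gm15774 (0.63) and E430024P14Rik (0.63). In the 25 P200 libraries alone the r with Mbp was 0.52 for Cdh23, 0.63 for Mlph and 0.08 for Hrh2. For Pdgfra they were Dbx2 (0.74), Igsf21 (0.69), Mfsd2a (0.67), Chrm1 (0.67) and Emid1 (0.66), of which Dbx2 (0.74) and Mfsd2a (0.68) stayed among the 5 highest without the 3 libraries. At P200 the r with Pdgfra was 0.30 for Dbx2 and 0.07 for Igsf21. None of the other 8 genes was among the 5 for either.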

How the data were processed

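RNA of microglia from 50 mice was measured by RNA-seq, 1 library per mouse. The authors deposited 1 file of gene counts per mouse, whole numbers of reads that are not normalized. Per the labels and the study's methods, reads were demultiplexed with bcl2fastq 2.20, trimmed with cutadapt 2.10, aligned with STAR to GRCm39 and counted with HTSeq 0.11.0. The annotation release and strand setting are not given in the sources used here, so reads of overlapping genes on opposite strands may not be separated.

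The analysis used R 4.3.3 and edgeR 4.0.16. The filter kept 16696 of 53700 genes, those that reached 1 CPM in more than 2 libraries. After TMM scaling, all 50 libraries entered 1 quasi-likelihood model of the 6 group means. Called genes had a Benjamini-Hochberg adjusted p under 0.05 over all tested genes together with a log2 fold change beyond 1 in either direction. For correlations, the prior count of log2 CPM was 2. Alternatives were DESeq2 1.42.0 (test and size factors), limma 3.58.1 voom with nest as random effect, counts summed per nest, 2 other edgeR tests, 2 other filters, fits of the compared groups alone, a replicate block, and leaving out each library or the 3 with the fewest detected genes. On simulated counts for P200-CTR-PBS against P9-CTR (16696 genes), 143 of 200 genes changed by 2 on the log2 scale were called, with 7 false calls. The simulated mice were independent, without nests, and each gene was drawn around its mean over all 50 libraries, the other genes unchanged. These figures therefore do not carry over to genes near 0 at either age.

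Mice of a nest share rearing, and the numbers taken as nests are not defined in the sources. Each nest of an age belongs to 1 condition. The deeper libraries give the smaller counting error, and totals ranged from 5152838 to 42231258 counts. Positions and exon lengths came from a GENCODE annotation of GRCm39 in which 52610 of the 53700 identifiers were found, and promoters, found for 7 of the 9 genes, from RefSeq (GRCm38.p6). The 9 genes and the marker lists were chosen with earlier results of these data known. Named genes were the 9 in every comparison, up to 4 called genes per list and comparison with the smallest p, and the 5 tested genes most correlated with Mbp and with Pdgfra. Bcas1 (in CTR), Enpp6, Reep2, Olfml2b, Plxdc2, Gm15774, E430024P14Rik, Trf, Opalin, Sox10, Ly6g, Cd22, Zfp57 and Dnajc7 were named in addition where the text describes them, some after their values were seen.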

Additional observations from a re-analysis of the deposited data

Results flagged for a closer look

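Within the P200 groups, of 5 to 7 mice each, 34 sets of values (1 gene in 1 group) were examined for a mouse far from the others of its group, and 10 held one. Chance alone gives about 1 in 20 for continuous values. That rate does not apply to several of these sets, which are nearly all 0 and where a single count is enough. The 10 are therefore not read as more than chance gives. Mobp was 2.15 CPM (63 counts) in P200_18.2_CTR_PBS, and the nearest mouse was at 0.584 CPM. Cnp was 44.8 CPM in P200_1.1_CTR_PBS, a library with few detected genes, and the nearest mouse was at 97.7 CPM.

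The other 8 were high values of precursor genes in adult mice. Pdgfra was 0.499 CPM (7 counts) in P200_15.1_CTR_PBS, 0.0356 CPM (1 count) in P200_4.1_ELS_PBS and 0.443 CPM (6 counts) in P200_2.2_ELS_LPS. Cspg4 was 0.241 CPM (6 counts) in P200_17.1_ELS_PBS, 0.0666 CPM (1 count) in P200_1.2_CTR_LPS and 0.309 CPM (5 counts) in P200_11.2_ELS_LPS. Olig2 was 0.0282 CPM (1 count) in P200_2.1_ELS_PBS and 0.0738 CPM (1 count) in P200_2.2_ELS_LPS. The mouse P200_2.2_ELS_LPS was thus the high one for Pdgfra and for Olig2, and it also had the highest Olig1 value of its group, 0.295 CPM (4 counts). The cause was not tested.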

How the results depend on the processing

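The number of the 8 genes called stayed within 1.5 times the reported number in every comparison under every alternative. With 1 library left out, 1348 single-gene values kept sign and call, 49 changed sign, 10 lost the call and 1 gained it. Under the other alternatives 679 kept both, 26 changed sign and 5 lost the call. No value that changed sign was called. Low counts of Mobp, Mog, Olig1, Pdgfra and Cspg4 limit these values.

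The call of Mog with age in CTR was lost without the low-count filter (-2.58, edgeR adjusted p = 0.0605), with filterByExpr (-2.51, 0.0511), with counts summed per nest (-2.61, 0.0823) and without the 3 libraries with few detected genes (-2.38, 0.05), and ranged from -3.49 to -2.36 with 1 library left out. Mobp with age in ELS lost its call with counts summed per nest (3.68, edgeR adjusted p = 0.0522). Cspg4 with age in ELS ranged from -5.65 to -1.96 with 1 library left out. The median of Cnp in P200-CTR-LPS was 83.3 CPM with total counts in place of TMM, against 92.8 CPM.

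Sign changes were as follows, all on the log2 scale. Without the 3 libraries, ELS at P9 gave Mog 0.01, Mag 0.07 and Cnp -0.01, ELS after PBS gave Cnp -0.01, LPS in CTR gave Cspg4 0.42, and the difference of the age change gave Mbp -0.09 and Mag -0.19. With counts summed per nest, ELS at P9 gave Cnp -0.03, ELS after PBS gave Mobp 0.05 and Mag 0.02, LPS gave Mbp 0.01 in CTR and Mobp -0.10 in ELS, and the difference of the LPS change gave Cnp -0.03. With voom and nest as random effect, ELS at P9 gave Cnp -0.06, ELS after PBS gave Mag 0.06 and Cspg4 -0.09, ELS after LPS gave Mog 0.16, LPS in CTR gave Pdgfra 0.30 and Cspg4 0.07, the difference of the age change gave Pdgfra 0.88, and that of the LPS change Mobp 0.02 and Cnp -0.01. With DESeq2, LPS in CTR gave Cspg4 0.11. The causes were not tested.

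The nest number as a replicate block over the P200 libraries called 0 of the 8 genes in the LPS comparisons, as without it. It gave Mbp 0.01 and Olig1 -0.19 for LPS in CTR and Cnp -0.01 for the difference of the LPS change. Of 10 nests with PBS and LPS mice, 0 had a mean correlation of deviations over 0.1 (from -0.0411 to 0.0569), and the median correlation was 0.0306 for PBS and LPS mice of the same nest and -0.00196 for those of different nests of 1 condition. The limma consensus correlation within nests was 0.0778. As none of the nest means was over 0.1, the number was not taken to pair samples. P9 nests, each of 1 group, were not part of the check.

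With 1 library left out, ELS at P9 ranged from -0.96 to 2.42 for Mobp and from -0.07 to 0.08 for Cnp. ELS after PBS ranged from -0.30 to 0.02 for Mbp, -0.95 to 0.88 for Mobp, -0.14 to 0.07 for Mag, -0.01 to 0.18 for Cnp, -3.40 to 1.11 for Pdgfra and -1.83 to 1.78 for Cspg4. ELS after LPS ranged from -0.98 to 0.20 for Mog, -1.61 to 0.68 for Olig1 and -2.61 to 1.97 for Pdgfra. LPS in CTR ranged from -0.17 to 0.08 for Mbp, -1.48 to 2.60 for Pdgfra and -0.74 to 0.51 for Cspg4. LPS in ELS ranged from -0.55 to 0.73 for Mobp, -1.11 to 3.90 for Pdgfra and -1.05 to 3.82 for Cspg4. The difference of the age change ranged from -0.01 to 0.32 for Mbp, -2.75 to 0.63 for Mobp, -0.01 to 0.21 for Mag, -0.03 to 0.18 for Cnp, -2.58 to 1.93 for Pdgfra and -0.87 to 2.80 for Cspg4. That of the LPS change ranged from -0.31 to 0.04 for Mbp, -0.05 to 0.19 for Cnp, -0.29 to 4.71 for Pdgfra and -0.95 to 3.92 for Cspg4.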
